A study of Homo sapiens with 15 samples.

Results

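The transcripts of 42 genes of the hypoxia response and of glycolysis were followed in 15 RNA-Seq libraries of NCI-H295R, a steroid-producing cell line from a human adrenocortical carcinoma. The genes were given as a list of symbols, and all 42 were found among the 21493 genes of the count files. After a filter on low counts 14368 genes were tested, 41 of the listed genes among them. Only ADM, which encodes the secreted peptide adrenomedullin, failed the filter, at 0.0434 to 0.339 CPM in the 15 libraries (counts-per-million of the library total, scaled by TMM factors, which correct for RNA composition).

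Mock cells (4 libraries, mock 1 to 4) were wild-type cells transfected with the empty plasmid pcDNA3.T7. ΔNFATC4 cells (3 libraries) were wild-type cells transfected with the same plasmid carrying NFATC4 (also called NFAT3) without its N-terminal regulatory domain, a constitutively active form of this calcineurin-regulated transcription factor. RNA of both was taken 3 days after transient transfection, in which not every cell need carry the plasmid. The control libraries (4, control 1 to 4) came from wild-type cells and the libraries labelled NFATC4-KO (4, numbered 1, 2, 3 and 5) from knockout cells made with a pair of guide RNAs and cloned from single cells. In the study's methods the control cells had received empty plasmids in parallel, and the treatment label of these 8 libraries is blank. The 8 libraries labelled control and NFATC4-KO served here as the reference for mock and ΔNFATC4 cells. The labels name no batch, day or culture that all groups share, so transfection, time in culture and batch cannot be told apart in a difference from the 8. Nor do they say that replicates were separate cultures, and p-values measure only the spread between these libraries.

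Cells adapt to low oxygen through the hypoxia-inducible factors (HIF), in which an oxygen-labile alpha subunit (HIF1A or EPAS1, also called HIF-2α) pairs with ARNT. In oxygen, prolyl hydroxylases of the EGLN family mark the alpha subunit for destruction through VHL. In low oxygen it is stable, binds DNA at sites with the core ACGTG or GCGTG, and raises transcription of glucose transporters, nearly every glycolytic enzyme, and genes that turn pyruvate away from mitochondria, remove mitochondria, modify collagen and regulate pH. HIF alpha is controlled mainly at the protein level, and protein and oxygen were not measured in these files.

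The libraries held 18777737 to 28164717 counts, mock 4 being the deepest. Transcripts of the 42 genes made up 1.54 to 1.78% of the counts in mock, 1.39 to 1.41% in ΔNFATC4 and 1.29 to 1.42% in the 8. Of 10 adrenocortical markers, 7 exceeded 10 CPM in every library (NR5A1, 324 to 505 CPM), while 4 endothelial markers and 4 leukocyte markers stayed under 1 CPM. Of 5 fibroblast markers, COL1A1 was found at 4.14 to 12.4 CPM, and the list summed to 10.1 to 13.6 CPM in mock, 10.3 to 12.2 in ΔNFATC4 and 4.65 to 12.9 in the 8. Of 5 adrenal medulla markers, CHGA reached 2.70 CPM and the other 4 were near 0. Counts on 13 mitochondrial genes took 11.1 to 13.1% in mock, 11.5 to 11.8% in ΔNFATC4 and 8.82 to 10.5% in the 8, and the part of this difference in the results was not tested. NFATC4 stood at 329.7 to 359 CPM in ΔNFATC4 and 87.6 to 106 CPM in mock. It ranged from 44.8 to 114 CPM in control and from 53.6 to 92.7 CPM in NFATC4-KO, so its RNA level did not separate these labels. The study examined the knockout by immunoblot of NFATC4 protein, which was not measured here. Control 3, control 4, NFATC4-KO 3 and NFATC4-KO 5 stood apart from the other 4 of the 8: their mean Pearson's r with the mock libraries across genes was 0.9517 to 0.9588, against 0.9849 to 0.9879. Where this split removed a call or turned a direction named here, values against these sets of 4, or the loss of the call, are given beside it. In bulk RNA, fewer cells that express a gene and less RNA per cell cannot be told apart.

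To show where the HIF core lies in the genes whose levels rose most, promoter windows from RefSeq (GRCh38.p14, 250 bases before to 50 after the transcription start, read on the gene's strand) are printed for the 4 members with the highest fold changes in mock cells. CA9 (chr9:35673678-35673977, plus strand) encodes a carbonic anhydrase of the cell surface, DDIT4 (chr10:72273674-72273973, plus strand) an inhibitor of mTORC1, PFKFB4 (chr3:48556754-48557053, minus strand) a kinase that makes fructose 2,6-bisphosphate, and ANKRD37 (chr4:185396591-185396890, plus strand) an ankyrin repeat protein. Capitals mark ACGTG or GCGTG on either strand, so that CACGT and CACGC are the same letters read from the other strand.
CA9: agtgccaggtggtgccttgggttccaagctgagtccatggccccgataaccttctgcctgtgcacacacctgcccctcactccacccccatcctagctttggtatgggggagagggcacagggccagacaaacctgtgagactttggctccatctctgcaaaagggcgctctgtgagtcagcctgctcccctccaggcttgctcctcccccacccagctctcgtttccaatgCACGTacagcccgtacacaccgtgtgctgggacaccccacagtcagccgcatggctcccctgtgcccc
DDIT4: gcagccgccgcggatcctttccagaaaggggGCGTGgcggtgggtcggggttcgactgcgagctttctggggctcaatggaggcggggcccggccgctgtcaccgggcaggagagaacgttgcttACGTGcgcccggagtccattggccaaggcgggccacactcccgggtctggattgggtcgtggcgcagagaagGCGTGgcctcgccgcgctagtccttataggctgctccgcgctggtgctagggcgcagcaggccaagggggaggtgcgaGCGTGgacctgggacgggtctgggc
PFKFB4: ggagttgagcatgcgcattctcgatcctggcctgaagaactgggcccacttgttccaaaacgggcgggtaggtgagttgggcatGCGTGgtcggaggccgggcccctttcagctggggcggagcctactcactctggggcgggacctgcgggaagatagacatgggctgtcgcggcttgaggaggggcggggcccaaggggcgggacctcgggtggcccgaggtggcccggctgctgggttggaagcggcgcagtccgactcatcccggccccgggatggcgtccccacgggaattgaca
ANKRD37: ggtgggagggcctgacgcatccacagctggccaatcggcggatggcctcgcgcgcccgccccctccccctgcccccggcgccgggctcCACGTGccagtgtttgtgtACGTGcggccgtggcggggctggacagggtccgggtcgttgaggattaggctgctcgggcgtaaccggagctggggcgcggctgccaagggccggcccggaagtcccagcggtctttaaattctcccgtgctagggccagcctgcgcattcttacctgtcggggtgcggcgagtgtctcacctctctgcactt

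The CA9 window held 1 match, close to the transcription start, and PFKFB4 held 1, farther upstream. DDIT4 held 4 matches, 3 of them GCGTG. ANKRD37 held 3, and 2 of these are the same palindrome CACGTG read on both strands. A promoter window was given for 37 of the 42 genes, in 70 windows because several genes have more than 1 start. ACGTG occurred in 40.0% of these windows against 21.4% of all 35116 windows of the same length. GCGTG occurred in 44.3% against 36.5%, and either motif in 68.6% against 48.4%. The motifs differ in their first base, so no site counts for both on the same strand, while sites on opposite strands can overlap. A match is a string of letters in a window and was not measured as a binding site. The shares pool members that rose with members that did not, in a list named for the hypoxia response. They therefore do not bear on the changes in these libraries.

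The first comparison asked whether cells with empty plasmid stood apart from the 8. In mock cells 29 of the 41 tested members rose (70.7%) and 2 fell, by edgeR's quasi-likelihood test at a Benjamini-Hochberg adjusted p under 0.05. Over all 14368 genes 17.8% were higher and 19.3% lower. The members' median log2 fold change was 0.45, and 37 of 41 were positive, while the median over all genes was 0. The rise reached from the glucose transporter SLC2A1 through the payoff steps of glycolysis to HIF feedback genes, and HIF1A itself fell.

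**Figure D1:**
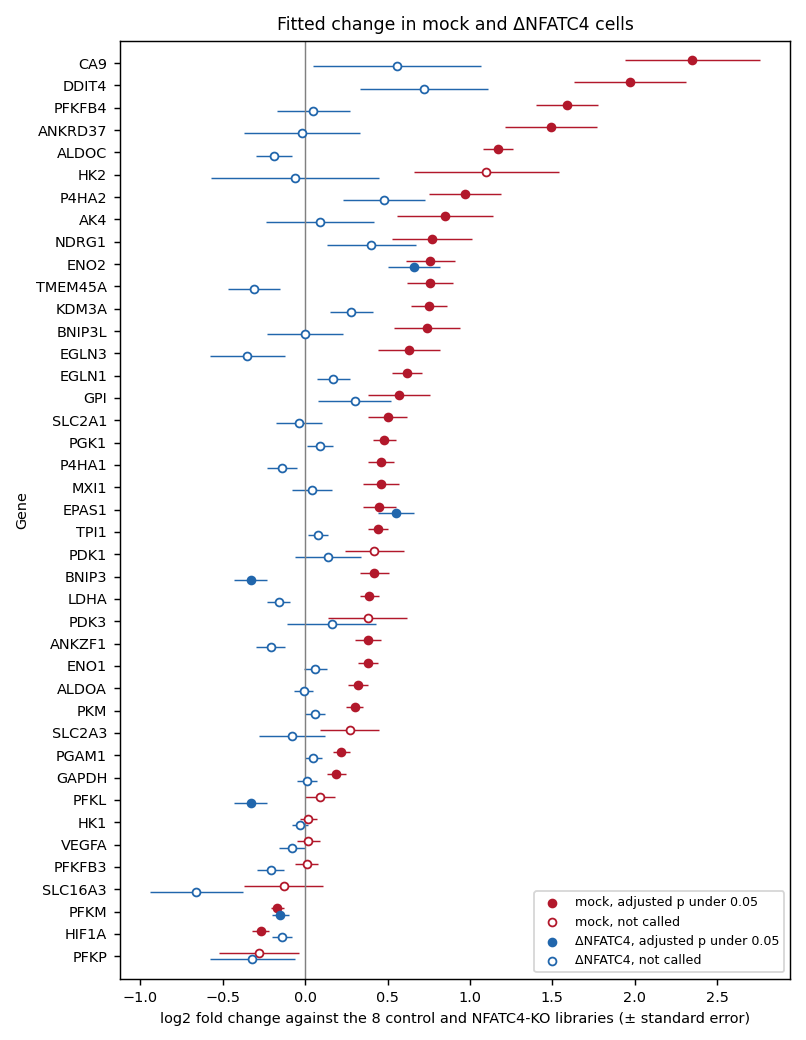
Fitted log2 fold change of each tested member against the 8 control and NFATC4-KO libraries (x axis, bars ± standard error) in mock (red) and ΔNFATC4 (blue), with filled points at an adjusted p under 0.05 and genes (y axis) ordered by the change in mock. In mock 29 points are filled to the right of 0 and 2 to the left. In ΔNFATC4 2 are filled to the right and 3 to the left.

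CA9, whose product hydrates carbon dioxide outside the cell and is a standard marker of HIF activity, had the highest fold change. Its level was 2.17, 1.29, 3.95 and 0.503 CPM in mock 1 to 4, against 0.172 (lowest), 0.409 (median) and 0.557 CPM (highest) in the 8. Mock 1 to 3 were above all 8 and mock 4 was within their range. The fitted log2 fold change was 2.35 ± 0.41 (SE, edgeR adjusted p = 0.000648), at a level of few transcripts. DDIT4, induced by hypoxia and other stress, was at 41.5, 40.1, 49.6 and 27.5 CPM in mock and at 4.48, 9.95 and 16.3 CPM (lowest, median, highest) in the 8. All 4 mock libraries were above all 8, and the log2 fold change was 1.97 ± 0.34 (edgeR adjusted p = 0.000892). The 8 split for this gene, with 13.2 to 16.3 CPM in control and NFATC4-KO 1 and 2 and 4.48 to 6.73 CPM in the other 4. With the first set alone as the reference the log2 fold change was 1.42, and with the second 2.87.

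PFKFB4 was at 46.2, 43.0, 63.7 and 21.6 CPM in mock, and at 11.0, 14.7 and 18.7 CPM (lowest, median, highest) in the 8. The groups did not overlap, and mock 4 was nearest to the 8. Its log2 fold change was 1.59 ± 0.19 (edgeR adjusted p = 6.91e-05). PFKFB3, the related enzyme with the higher kinase activity, was at 27.0, 32.3, 33.2 and 33.3 CPM in mock and at 26.0, 32.0 and 34.0 CPM in the 8. Its groups overlapped throughout, with a log2 fold change of 0.01 ± 0.07. ANKRD37 was at 2.91, 2.85, 2.17 and 0.933 CPM in mock and at 0.485, 0.793 and 1.17 CPM in the 8, again with mock 4 inside the range of the 8. Its log2 fold change was 1.49 ± 0.28 (edgeR adjusted p = 0.00107).

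**Figure D2:**
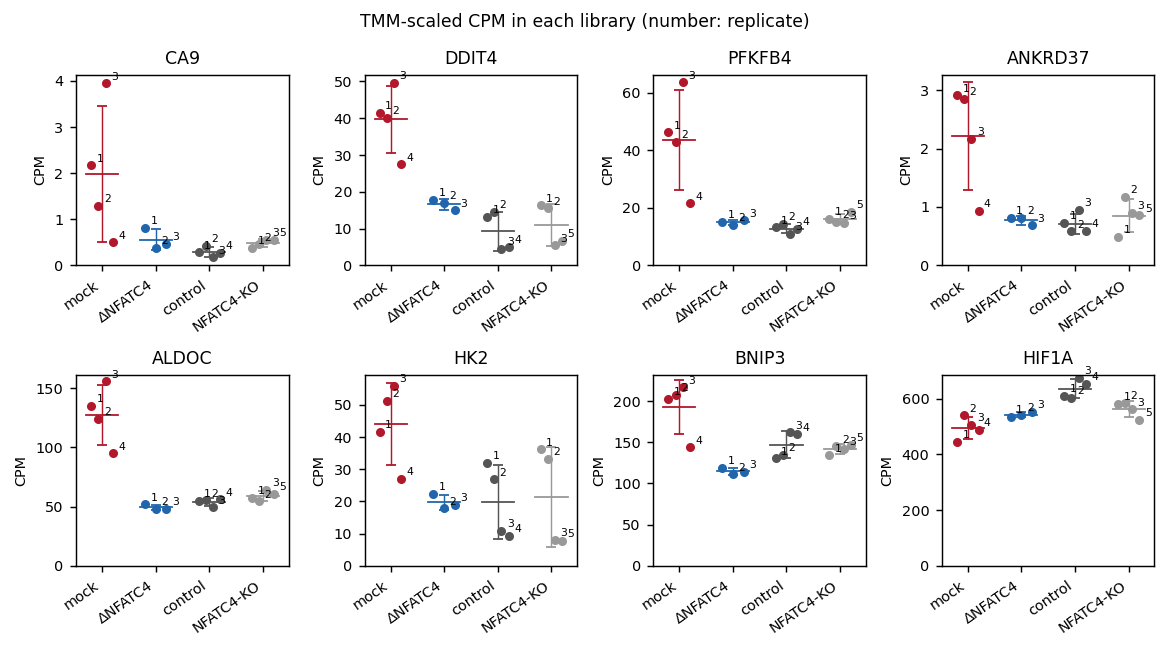
TMM-scaled CPM (y axis, from 0) of 8 members in mock (4 libraries), ΔNFATC4 (3), control (4) and NFATC4-KO (4), with 1 point per library, its replicate number beside it, and group means with SD as bars. For PFKFB4 mock 1 to 3 lie at 43.0 to 63.7 CPM, mock 4 at 21.6 and every other library at 18.7 or below, whereas HIF1A is lower in mock than in most of the 8.

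In the first stage of glycolysis, which spends ATP to split glucose, 5 of 11 members rose in mock cells and 1 fell. ALDOC, an aldolase isozyme best known from brain, was at 135, 124, 156 and 95.1 CPM in mock and at 49.3, 55.8 and 64.3 CPM in the 8. All mock libraries were above all 8, and the log2 fold change was 1.17 ± 0.09 (edgeR adjusted p = 3.32e-06), the smallest p among the members. ALDOA, the widely expressed isozyme, was at 1096, 977, 1163 and 1025 CPM in mock and at 743, 857 and 941 CPM in the 8. Its groups did not overlap either, but the log2 fold change was 0.32 ± 0.06 (edgeR adjusted p = 0.000794). Per exon base, ALDOC took 12.0 to 16.4% of ALDOA and ALDOC together in mock, 7.68 to 8.06% in ΔNFATC4 and 8.43 to 9.54% in the 8. ALDOA is uncertain in part, since 89.2% of the 100-base stretches of its transcript also occur in an overlapping gene model on the same strand.

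The fructose 2,6-bisphosphate enzymes shifted in the same way. Per exon base PFKFB4 took 57.1 to 65.7% of PFKFB3 and PFKFB4 in mock 1 to 3 and 39.3% in mock 4, against 28.8 to 37.6% in the 8 and 34.8 to 36.4% in ΔNFATC4. TPI1, triose phosphate isomerase, rose with a log2 fold change of 0.44 ± 0.06 (edgeR adjusted p = 9.44e-05). GPI, which isomerises glucose 6-phosphate, had 0.57 ± 0.19 (edgeR adjusted p = 0.0349). GPI was at 807 to 910.1 CPM in control and NFATC4-KO 1 and 2 and at 466 to 503 CPM in the other 4, while mock ranged from 929 to 1108 CPM. Its log2 fold change was 0.23 with the first set alone as the reference and 1.02 with the second. The phosphofructokinase subunits did not share the rise: PFKM, the muscle-type subunit, fell by 0.17 on the log2 scale (SE 0.04, edgeR adjusted p = 0.00859). At 151 to 169 CPM in mock, PFKM lay below control (185 to 193 CPM) and overlapped NFATC4-KO (159 to 181 CPM). PFKL had 0.09 ± 0.09, and PFKP −0.28 ± 0.24.

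Hexokinase 2, the inducible enzyme of the first step, was at 41.7, 51.3, 56.0 and 27.0 CPM in mock. In the 8 it was at 26.9 to 36.2 CPM in control and NFATC4-KO 1 and 2 and at 7.67 to 10.9 CPM in the other 4. Mock 1 to 3 were above all 8 and mock 4 was not. The log2 fold change of 1.10 ± 0.44 missed the threshold (edgeR adjusted p = 0.0675), and was 0.46 (adjusted p = 0.0927) with the first set alone and 2.29 (adjusted p = 5.75e-07) with the second. With the replicate number as a block HK2 passed, at 1.25 ± 0.35 (edgeR adjusted p = 0.0254). But same-numbered libraries of mock and the 8 did not deviate together, so the block only shows how the call moves. PFKP turned with the reference, from a log2 fold change of 0.27 (edgeR adjusted p = 0.0118) with the first set alone to −0.68 (edgeR adjusted p = 8.62e-08) with the second. The housekeeping hexokinase HK1 was at 99.1 to 118 CPM in mock and had a log2 fold change of 0.02 ± 0.05.

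All 7 members of the second stage of glycolysis, which yields ATP, pyruvate and lactate, rose in mock cells. These abundant transcripts changed little in size but with small errors. The log2 fold change was 0.19 ± 0.06 for GAPDH, 0.48 ± 0.07 for the phosphoglycerate kinase PGK1, 0.22 ± 0.05 for the mutase PGAM1, 0.38 ± 0.06 for the enolase ENO1, 0.30 ± 0.05 for the pyruvate kinase PKM and 0.39 ± 0.06 for LDHA, which turns pyruvate into lactate (edgeR adjusted p of 0.000274 to 0.0135). ENO2, the neuronal enolase, was at 12.8, 12.1, 17.5 and 7.93 CPM in mock and at 6.25, 7.47 and 8.43 CPM in the 8. Mock 4 lay within the range of the 8, and the log2 fold change was 0.76 ± 0.15 (edgeR adjusted p = 0.00143). Counts of PGAM1 and GAPDH are uncertain in part, since 46.2% and 19.3% of the 100-base stretches of their transcripts also occur in other gene models. For PGAM1 this is a processed pseudogene on another chromosome, and for GAPDH an overlapping gene model on the opposite strand. Counts of ANKRD37, CA9 and NDRG1 are uncertain in part as well, with shares of 33.9%, 23.9% and 22.4%. For ANKRD37 and CA9 the other gene model overlaps on the opposite strand, and for NDRG1 on the same strand.

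Among the transporters, SLC2A1, the main glucose importer of many tumour cells, rose by a log2 fold change of 0.50 ± 0.12 (edgeR adjusted p = 0.00565), which was 0.29 against control and NFATC4-KO 1 and 2 and 0.75 against the other 4. SLC2A3, a high-affinity glucose transporter, had 0.27 ± 0.18 (edgeR adjusted p = 0.259). It was at 57.3 to 62.4 CPM in control and NFATC4-KO 1 and 2 and at 33.2 to 41.1 CPM in the other 4, with a log2 fold change of −0.05 (edgeR adjusted p = 0.57) against the former and of 0.66 (edgeR adjusted p = 1.97e-08) against the latter. The lactate exporter SLC16A3, at 0.316 to 0.891 CPM over all libraries, had −0.13 ± 0.24. The pyruvate dehydrogenase kinases, which close the entry of pyruvate into the citric acid cycle, did not pass, with 0.42 ± 0.18 for PDK1 (edgeR adjusted p = 0.0769) and 0.38 ± 0.24 for PDK3 (edgeR adjusted p = 0.242). Both followed the split of the 8: without control and NFATC4-KO 1 and 2 their log2 fold changes were 0.80 and 0.96, and without the other 4 they were 0.11 and −0.04. With the replicate number as a block PDK1 passed, at 0.44 ± 0.11 (edgeR adjusted p = 0.0122), though the numbers did not pair mock libraries with the 8. AK4, a mitochondrial adenylate kinase, was at 12.5, 13.4, 17.4 and 7.0 CPM in mock and at 3.76, 7.09 and 10.0 CPM in the 8. Mock 4 was among the 8, and the log2 fold change was 0.85 ± 0.29 (edgeR adjusted p = 0.033). It was 0.43 (edgeR adjusted p = 0.127) against control and NFATC4-KO 1 and 2 alone.

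The HIF alpha subunits moved in opposite directions. HIF1A was at 445, 540, 505 and 488 CPM in mock and at 524, 594 and 674 CPM in the 8. Mock 2 overlapped the 8, and HIF1A fell by 0.27 on the log2 scale (SE 0.05, edgeR adjusted p = 0.00148). Mock lay below control (603 to 674 CPM) and overlapped NFATC4-KO (524 to 584 CPM). EPAS1 was at 8.98, 10.0, 9.23 and 9.91 CPM in mock, at 5.51, 5.19, 5.73 and 6.65 CPM in control, and at 8.14, 7.71, 8.07 and 10.1 CPM in NFATC4-KO. Mock lay above control and overlapped NFATC4-KO, and the log2 fold change against the 8 was 0.45 ± 0.10 (edgeR adjusted p = 0.00344). Per exon base, EPAS1 took 1.27 to 1.41% of the 2 subunits in mock.

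The oxygen-sensing prolyl hydroxylases, themselves HIF targets that limit the response, both rose. EGLN1 was at 114, 127, 118 and 97.2 CPM in mock and at 59.3, 76.6 and 83.3 CPM in the 8. No library overlapped, and the log2 fold change was 0.62 ± 0.09 (edgeR adjusted p = 0.000225), with 68.6% of its 100-base transcript stretches also found in another gene model on the same strand. EGLN3 was at 16.3, 19.4, 19.2 and 14.1 CPM in mock and at 7.22, 11.0 and 16.1 CPM in the 8. Mock 4 was inside the range of the 8, and the log2 fold change was 0.63 ± 0.19 (edgeR adjusted p = 0.0213), or 0.31 against control and NFATC4-KO 1 and 2 alone and 1.05 against the other 4.

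The mitophagy receptors BNIP3 and BNIP3L, which mark mitochondria for removal, rose too. BNIP3 was at 203, 208, 217 and 144 CPM in mock and at 130.4, 144 and 162 CPM in the 8. Mock 4 was at the median of the 8 while mock 1 to 3 were above every one of them, and the log2 fold change was 0.42 ± 0.09 (edgeR adjusted p = 0.00288). BNIP3L was at 63.5, 71.2, 71.0 and 51.9 CPM in mock and at 24.3, 38.8 and 50.4 CPM in the 8. The groups did not overlap, with a log2 fold change of 0.74 ± 0.20 (edgeR adjusted p = 0.0119), which was 0.40 against control and NFATC4-KO 1 and 2 and 1.20 against the other 4.

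Of the collagen prolyl 4-hydroxylase subunits, needed for stable collagen, P4HA1 had a log2 fold change of 0.46 ± 0.08 (edgeR adjusted p = 0.000769). P4HA2 was at 14.5, 12.4, 14 and 8.80 CPM in mock and at 4.06, 5.92 and 9.31 CPM in the 8, and only mock 4 overlapped. Its log2 fold change was 0.97 ± 0.22 (edgeR adjusted p = 0.00409), from 0.62 to 1.42 between the sets of 4. VEGFA, the angiogenic growth factor and a textbook HIF target, did not take part. It was at 165, 167, 174 and 146 CPM in mock and at 142, 160.2 and 186 CPM in the 8, with a log2 fold change of 0.02 ± 0.07 (edgeR adjusted p = 0.884).

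All 7 of the remaining hypoxia-response genes rose, DDIT4 and ANKRD37 among them. KDM3A, a histone H3K9 demethylase, was at 77.8, 80.2, 82.3 and 52.4 CPM in mock and at 36.8, 42.1 and 54.5 CPM in the 8. Mock 4 alone overlapped, and the log2 fold change was 0.75 ± 0.11 (edgeR adjusted p = 0.000231). TMEM45A, which encodes a membrane protein, was at 18.2, 17.8, 19.6 and 10.3 CPM in mock and at 8.14, 9.58 and 11.3 CPM in the 8. Here too mock 4 was within the 8, and the log2 fold change was 0.76 ± 0.14 (edgeR adjusted p = 0.000895). NDRG1, a stress-responsive gene, was at 12.1, 12.4, 15.5 and 7.32 CPM in mock and at 4.29, 6.90 and 9.48 CPM in the 8. Its split ran the other way, with the lower values of the 8 in control and NFATC4-KO 1 and 2, and the log2 fold change of 0.77 ± 0.24 (edgeR adjusted p = 0.0223) was 1.26 against these and 0.38 (edgeR adjusted p = 0.0551) against the other 4. MXI1, an antagonist of MYC, had a log2 fold change of 0.46 ± 0.11, and ANKZF1, which acts in the quality control of stalled ribosomes, 0.38 ± 0.08 (edgeR adjusted p of 0.00453 and 0.00283).

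Without any model, all 4 mock libraries were above all 8 for 14 members (34.1%), against 9.65% of all genes tested, and below them for 0, against 10.7%. For mock 1 to 3 the count above was 29 (70.7%, against 11.5% of all genes) and the count below was 1, PFKM (against 11.9%). Mock 4 by itself was above all 8 for 15 members (20.0% of all genes) and below them for 1, HIF1A (21.0%). Of the 29 members with mock 1 to 3 above the 8, mock 4 was above the 8 for 14 and within their range for 15.

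**Figure D3:**
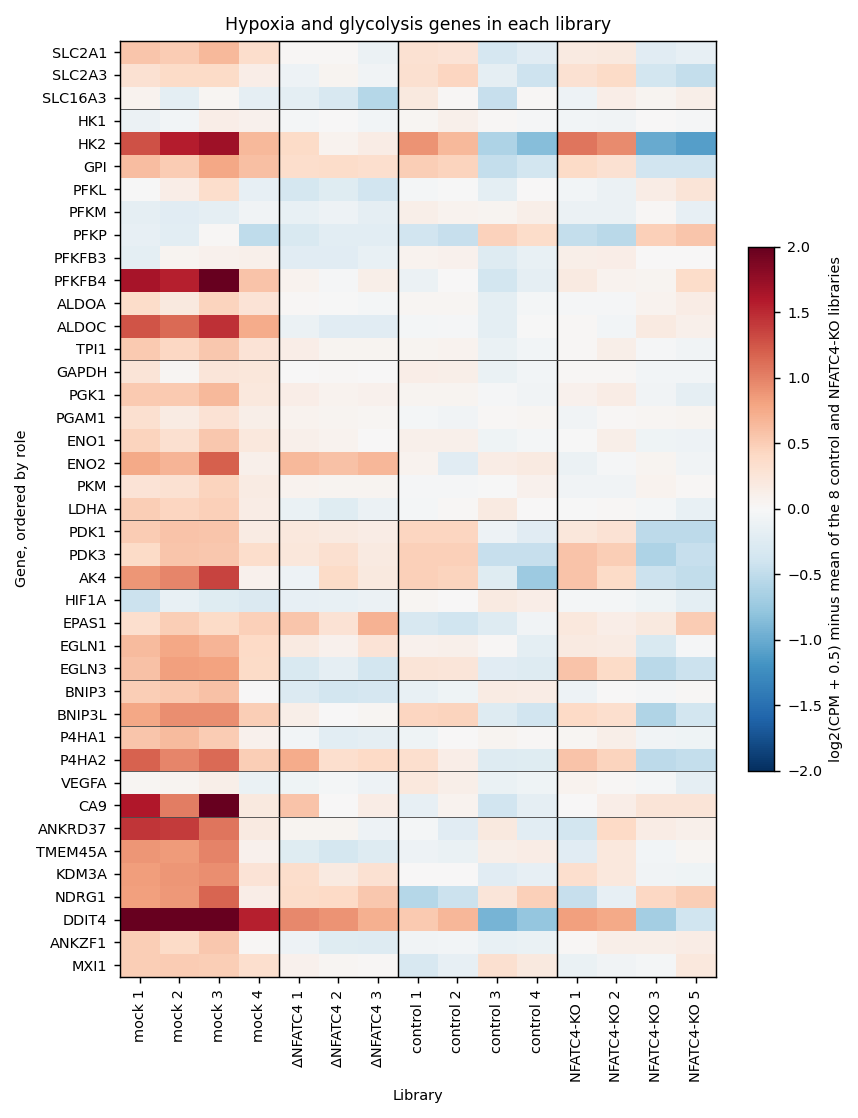
Heat map of 41 members (rows, ordered by role, with lines between roles) in 15 libraries (columns), as log2(CPM + 0.5) minus the mean of the 8 control and NFATC4-KO libraries, with colours held at −2 and 2. Red runs through mock 1 to 3 in most rows and is paler in mock 4, and HK2, DDIT4, BNIP3L, PDK1 and PDK3 are blue in control 3 and 4 and NFATC4-KO 3 and 5.

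The next question was how mock 4 differed from the other mock libraries. It was described without a test, because mock 4 has no replicate. Mock 4 was the lowest of the mock libraries for 32 of 41 members (78.0%), against 21.6% of all genes tested, and the highest for 2. Mock 1 was the lowest for 4 members, mock 2 for 5 and mock 3 for 0. Mock 3 was the highest for 24 members (58.5%), against 21.9% of all genes. On the log2(CPM + 0.5) scale, the median difference of a library from the mean of the other 3 was −0.33 over the members for mock 4, and 0.08, 0.06 and 0.19 for mock 1 to 3. Over all genes it was 0, 0, 0.01 and 0 for mock 1 to 4, and mock 4 correlated with the other mock libraries as mock 3 did, with a mean r of 0.9942 across genes.

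CA9, PFKFB4 and ANKRD37, which were among the 4 members with the highest fold changes in mock, also had the widest gaps. On the same scale mock 4 was lower than mock 1 to 3 by 1.47 for CA9 (difference −1.47), with −1.20 for PFKFB4, −1.12 for ANKRD37, −0.98 for AK4 and −0.86 for HK2. DDIT4 had −0.65, ALDOC −0.53 and BNIP3 −0.53. Of the abundant enzymes, PGK1 had −0.36, LDHA −0.31, PKM −0.18 and ALDOA −0.07. The members that were not lower in mock 4 were PFKM (0.12), PFKFB3 (0.11), HK1 (0.10), EPAS1 (0.07) and GAPDH (0.05). Of these 5, the first 3 were not among the members that rose in mock cells. Without mock 4, the members called higher in mock numbered 28 in place of 29, and all genes called higher were 14.9% in place of 17.8%.

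**Figure D4:**
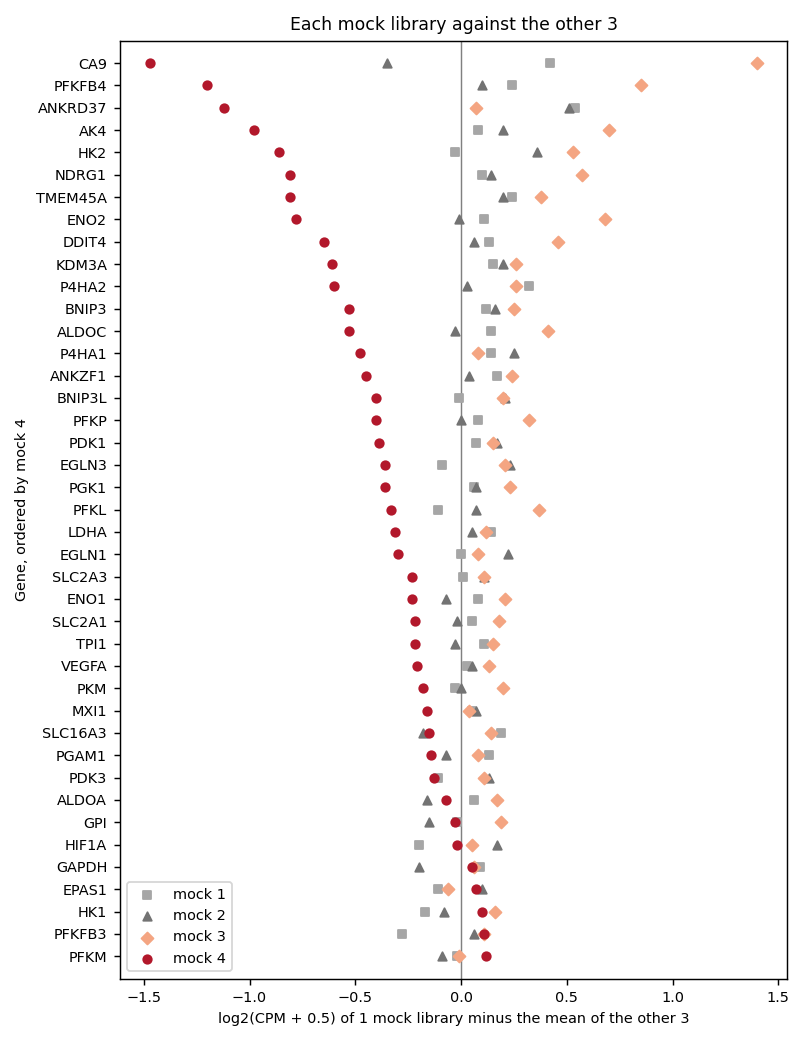
Difference of each mock library from the mean of the other 3 on the log2(CPM + 0.5) scale (x axis) for 41 members (y axis, ordered by mock 4), with 1 symbol per library. Mock 4 (red circles) reaches from −1.47 for CA9 to 0.12 for PFKM and is the lowest symbol for 32 members, and mock 3 (orange diamonds) is the highest for 24.

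RNA of ΔNFATC4 cells, like that of mock cells, was taken 3 days after transfection, but the labels name no batch or day that they share. Against the 8, 2 of 41 members rose and 3 fell (edgeR's quasi-likelihood test, adjusted p under 0.05), while 11.7% of all genes were higher and 13.3% lower. The median log2 fold change was 0 for the members and 0 for all genes. ENO2 was at 11.9, 11.4 and 12.0 CPM, above all 8, with a log2 fold change of 0.66 ± 0.16 (edgeR adjusted p = 0.00926). EPAS1 was at 10.5, 8.67 and 11.6 CPM, above all control and overlapping NFATC4-KO, with 0.55 ± 0.11 (edgeR adjusted p = 0.00275). BNIP3 was at 119, 111 and 114 CPM, below all 8, and fell by 0.33 on the log2 scale (SE 0.10, edgeR adjusted p = 0.0316). PFKL, the liver-type phosphofructokinase, also fell by 0.33 (SE 0.10, edgeR adjusted p = 0.0276) and PFKM by 0.15 (SE 0.05, edgeR adjusted p = 0.0432). At 157 to 165 CPM, PFKM lay below control (185 to 193 CPM) and overlapped NFATC4-KO (159 to 181 CPM). The calls of PFKL, PFKM and BNIP3 were each lost when any 1 of the 3 ΔNFATC4 libraries was left out, and PFKM also lost its call with the replicate number as a block (edgeR adjusted p = 0.0855). Against control and NFATC4-KO 1 and 2 alone, PFKM and BNIP3 lost their calls as well.

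All 3 ΔNFATC4 libraries were above all 8 for 1 member, ENO2 (11.3% of all genes), and below for 3, PFKL, BNIP3 and TMEM45A (12.0%). Of the 4 members with the highest fold changes in mock, none passed here. CA9 was at 0.810, 0.388 and 0.475 CPM, with a log2 fold change of 0.56 ± 0.51. DDIT4 was at 17.9, 17.1 and 15 CPM, overlapping the 8 at their upper end, with 0.72 ± 0.39 (edgeR adjusted p = 0.19). It was 0.18 (edgeR adjusted p = 0.429) against control and NFATC4-KO 1 and 2 alone and 1.63 ± 0.18 (edgeR adjusted p = 3.21e-06) against the other 4. PFKFB4 was at 15.2, 14.1 and 15.7 CPM, with 0.05 ± 0.22, and ANKRD37 at 0.810, 0.820 and 0.686 CPM, with −0.02 ± 0.35. ALDOC was at 51.9, 48.1 and 48.3 CPM, at the lower edge of the 8, with −0.19 ± 0.11. HIF1A was at 534, 541 and 552 CPM, with −0.14 ± 0.06, and VEGFA at 152, 156 and 149 CPM, with −0.08 ± 0.08.

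The count of members called in ΔNFATC4 depended on which of the 8 were used. Against control and NFATC4-KO 1 and 2 alone 5 members were higher and 9 lower, and against the other 4 alone 14 were higher and 6 lower, while 19.2% and 27.2% of all genes were higher and 19.6% and 26.0% lower. Of the members not called against the 8, 6 were called in opposite directions against the 2 sets. HK2 had a log2 fold change of −0.69 (edgeR adjusted p = 0.0437) in the former and 1.13 (edgeR adjusted p = 0.000892) in the latter. PDK3 had −0.26 and 0.74, SLC2A1 −0.25 and 0.21, SLC2A3 −0.39 and 0.31, and BNIP3L −0.34 and 0.46, while PFKP went from 0.23 to −0.72 (edgeR adjusted p of 2.13e-07 to 0.0441). EPAS1, with 0.66 and 0.44, and ENO2, with 0.75 and 0.58, were higher in both.

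Set directly against mock, ΔNFATC4 cells had 0 members higher and 15 lower (36.6%) by edgeR's quasi-likelihood test, against 2.27% of all genes higher and 1.42% lower (3.69% in either direction). At an unadjusted p under 0.05 these counts were 0 and 25, against 8.09% and 6.99% of all genes, and the median log2 fold change was −0.42 for the members and 0 for all genes. This comparison uses the same mock libraries as the first, so the 2 are not independent. ALDOC fell by 1.37 (SE 0.13, edgeR adjusted p = 3.92e-05), PFKFB4 by 1.54 (SE 0.26, edgeR adjusted p = 0.00487), TMEM45A by 1.07 (SE 0.18, edgeR adjusted p = 0.00471) and ANKRD37 by 1.50 (SE 0.38, edgeR adjusted p = 0.0385), all on the log2 scale. Among enzymes of central glycolysis, LDHA fell by 0.56, PGK1 by 0.39, TPI1 by 0.36, ALDOA by 0.33, ENO1 by 0.32 and PKM by 0.24 (edgeR adjusted p of 0.00129 to 0.0483). BNIP3 fell by 0.75, P4HA1 by 0.61, ANKZF1 by 0.59, EGLN3 by 0.98 and EGLN1 by 0.45 (edgeR adjusted p of 0.00239 to 0.0484).

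CA9, with a log2 fold change of −1.79 ± 0.54, and DDIT4, with −1.25 ± 0.45 (edgeR adjusted p = 0.179), did not pass in ΔNFATC4 against mock. In a fit of only these 2 groups DDIT4 passed, at −1.24 ± 0.17 (edgeR adjusted p = 0.00103). EPAS1 (0.10 ± 0.13), ENO2 (−0.10 ± 0.19), VEGFA (−0.10 ± 0.09) and HIF1A (0.13 ± 0.07) did not pass either. The count of 15 lower members was 17 without mock 4, 9 without mock 1 or without mock 2, 8 without mock 3 or ΔNFATC4 1, and 7 without ΔNFATC4 2 or 3. The share of all genes called lower went from 1.42% to 0.366 to 1.08% at these settings. ALDOC, PFKFB4, LDHA, BNIP3, P4HA1, TMEM45A and ANKZF1 were lower at every one of these settings.

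NFATC4-KO and control libraries were compared to see whether members differed between these labels. Each label holds libraries from both sides of the split, which adds to the spread within each label. The comparison therefore cannot show whether the 8 may serve as 1 reference. By edgeR's quasi-likelihood test 0 members were higher and 0 lower, with 0.216% of all genes called in each direction. At an unadjusted p under 0.05, 2 members were higher and 2 lower, against 6.99% and 5.78% of all genes. DESeq2 called EPAS1 higher and PFKM lower, and limma-voom called EPAS1 higher. The EPAS1 values given above did not overlap between these groups, with a log2 fold change of 0.56 ± 0.12 (edgeR adjusted p = 0.058). With the replicate number as a block it was 0.51 ± 0.12 (edgeR adjusted p = 0.292), and of all genes 0 were called in either direction. Shared deviations of these libraries need not come from pairing by number, so the block only shows how the calls move.

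Genes of the same pathways outside the 42 were read from 3 further lists. Of 7 tested regulators of HIF, EGLN2 rose in mock by a log2 fold change of 0.40 ± 0.12, and ARNT, the partner of HIF alpha, and the coactivator EP300 fell by 0.16 and 0.42 (edgeR adjusted p of 0.0177, 0.0103 and 0.00131). Of 36 tested genes known to be induced by hypoxia, 17 rose in mock (47.2%) and 2 fell (5.56%), beside 17.8% and 19.3% of all genes. Their median log2 fold change was 0.21. BHLHE40, a transcriptional repressor of the clock and hypoxia responses, was at 21.6 to 44.9 CPM in mock and 7.24 to 17.2 CPM in the 8, with 1.51 ± 0.20 (edgeR adjusted p = 0.00014). ERO1A, which oxidises protein thiols in the endoplasmic reticulum, had 0.63 ± 0.12 (edgeR adjusted p = 0.00129), and the chemokine receptor CXCR4 0.86 ± 0.31 (edgeR adjusted p = 0.0441). ANGPTL4, a secreted inhibitor of lipoprotein lipase, passed (edgeR adjusted p = 0.00236) at a mean of only 0.694 CPM in mock and 0.07 CPM in the 8, too few counts for a fold. The transferrin receptor TFRC fell by 0.52 (edgeR adjusted p = 0.00191). Mock 4 was the lowest mock library for 24 of these 36 genes (66.7%), against 21.6% of all genes, with a median difference of −0.25 from mock 1 to 3.

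In ΔNFATC4 against the 8, 4 of the 36 rose (11.1%) and 5 fell (13.9%), beside 11.7% and 13.3% of all genes. NDUFA4L2, which lowers the activity of mitochondrial complex I, was at 1.01 to 1.38 CPM in ΔNFATC4 and 0.129 to 0.461 CPM in the 8. It passed (edgeR adjusted p = 9.51e-05), but on too few counts outside ΔNFATC4 for a fold. BHLHE40 rose here as well, by 0.97 ± 0.22 (edgeR adjusted p = 0.00721), at 23.2 to 25.7 CPM. Against mock, 1 of the 36 was higher, NDUFA4L2 (edgeR adjusted p = 0.000255), again on few counts, at 0.0431 to 0.179 CPM in mock. Lower genes numbered 7 (19.4%), beside 2.27% of all genes higher and 1.42% lower.

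The 33 tested genes of sugar metabolism that are not part of the 42 did not share the rise. In mock 8 rose (24.2%) and 6 fell (18.2%), beside 17.8% and 19.3% of all genes, with a median log2 fold change of 0.03, and mock 4 was lowest for 7 (21.2%). The muscle enolase ENO3 fell by 0.87 (SE 0.14, edgeR adjusted p = 0.000377) and PFKFB2 by 0.71 (SE 0.10, edgeR adjusted p = 0.000216). In ΔNFATC4, 5 of the 33 were higher (15.2%) and 4 lower (12.1%) than in the 8.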

How the data were processed

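Stranded mRNA libraries (15) of NCI-H295R cells were sequenced by the authors, who mapped them to GRCh38.p13 by STAR and used featureCounts for the gene counts (submitters' processing notes and methods). Their versions, strand and multi-mapping settings are not given in the sources used here. The deposited values are raw counts, 1 file per library, not normalized, with 18777737 to 28164717 counts each. In R 4.3.3, edgeR 4.0.16 gave TMM factors, CPM and the main test, while DESeq2 1.42.0 and limma 3.58.1 served as alternatives. The filter filterByExpr left 14368 genes. A quasi-likelihood fit of all 15 libraries with 1 mean per group gave 4 contrasts, with Benjamini-Hochberg adjustment over all genes tested. The 8 libraries labelled control and NFATC4-KO enter as the average of their 2 group means.

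Members, lists and reference were chosen with earlier results of these data known. Values per library are given for called members (up to 12, by fold change in mock or ΔNFATC4 against the 8), for 10 preset members and for the 5 that differed most in mock 4 at a mean of at least 1 CPM in mock. Of each further list some of the genes with the largest called changes are named; 1 such gene is not reported here. Other members named beyond this rule were chosen after their values were seen.

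Shares between isozymes use counts per union exon base (GENCODE v44, GRCh38). Promoters were read from a RefSeq table (GRCh38.p14). No 2 libraries held identical values. Same-numbered libraries of mock, ΔNFATC4 and the 8 did not deviate together (r from −0.11 to 0.10). Those of control and NFATC4-KO did (r of 0.71 to 0.81, from the data and the shared numbers). For number 2 the best match was number 1, so these deviations need not come from pairing by number. A replicate block is given for that comparison as an alternative. Alternatives were another scaling, filter, test or set of libraries. The fit was tested on simulated counts. These were drawn from a common mean per gene, with changes set only in mock, so they did not hold the split of the 8. Counts limit precision at low levels: 0 counts allow up to 0.108 to 0.158 CPM (3 counts), counting error only.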

Additional observations from a re-analysis of the deposited data

Results flagged for a closer look

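In groups of 4 libraries, a library was picked out where its gap to the nearest other divided by the group's range exceeded Dixon's critical value for 4 samples at a level of 0.05. Chance picks out about 1 group in 20, and 4 of the 123 groups of members examined were picked out, all in mock. In KDM3A mock 4 was lowest, at 52.4 CPM with the nearest library at 77.8 (gap ratio 0.85), and in MXI1 mock 4 was lowest at 16.5 CPM with the nearest at 18.4 (0.842). In GAPDH mock 2 was lowest at 3354 CPM with the nearest at 3829 (0.85). In PFKFB3 mock 1 was lowest at 27.0 CPM with the nearest at 32.3 (0.844).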

How the results depend on the processing

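No member called in the fit reported changed direction under any alternative run. PFKP in mock, and 6 members in ΔNFATC4, were not called against the 8 but were called in opposite directions against its 2 sets of 4. Members higher in mock numbered 29 in the fit reported, 25 to 31 with each library left out in turn and 27 to 32 otherwise, and members lower 2 to 3. Of all genes, 2563, 1889 to 2732 and 2206 to 4419 were called higher at these settings. Those called lower numbered 2773, 2022 to 2924 and 2347 to 4274. The rest of the counts were less firm. In ΔNFATC4 against the 8, the 3 members lower became 1 with upper-quartile scaling, 8 with limma-voom, 0 to 5 with a library left out, 9 without control 3 and 4 and NFATC4-KO 3 and 5, and 6 without control 1 and 2 and NFATC4-KO 1 and 2. The 2 members higher became 5 and 14 in these last sets, and 2 to 3 with a library left out. All genes called higher numbered 1688 in the fit reported and 793 to 1937 with a library left out. Of all genes, 13.3% were called lower in the fit reported, 10.7% with upper-quartile scaling and 21.7% with limma-voom. With a library left out this share was 5.75 to 14.3%, and the shares for the sets of 4 are given above. Upper-quartile scaling put 3 members in place of 1 wholly above the 8. In ΔNFATC4 against mock, the 15 lower became 25 with limma-voom, 24 in a fit of only these groups and 7 to 17 with a library left out, while the share of all genes called lower went from 1.42% to 7.46%, 6.10% and 0.366 to 1.76%. In NFATC4-KO against control 1 member was higher with DESeq2 or limma-voom (1.22% and 1.12% of all genes), and 1 was lower with DESeq2 (1.27%). With a library left out 0 to 1 was higher (1 without ΔNFATC4 2, beside 0.214% of all genes). In mock against the 8, GPI and AK4 each lost their call in 9 of 27 alternatives, NDRG1 in 4 and EGLN3 in 2 (without mock 2, or without mock 3). In ΔNFATC4 against the 8, ENO2 and EPAS1 kept the call in all 26 alternatives, none of which used NFATC4-KO alone as reference. PFKM lost it in 18 of 26 and BNIP3 in 7. In ΔNFATC4 against mock PKM lost it in 19 of 23, EGLN3 in 14, EGLN1 in 12, ANKRD37 in 8 of 22, ENO1 in 7, PGK1 in 6, ALDOA in 4, TPI1 in 2 and PFKFB4 in 1. CA9 and ANKRD37 could not be tested with at least 50 counts in 3 libraries. The cause was not tested in any of these. With a replicate block, mock against the 8 had 31 members higher (HK2 and PDK1 gained), beside 17% of all genes. ΔNFATC4 against mock had 17 lower, beside 0.891% of all genes, and NFATC4-KO against control 0. Where the numbers did not pair the libraries this only shows how the counts move. Leaving out mock 4, control 3 and 4 and NFATC4-KO 3 and 5 together was added after seeing the data, and there GAPDH lost its call. Low transcripts such as CA9, ANKRD37, ANGPTL4 and NDUFA4L2 rest on few counts.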
